A study of Mus musculus with 278 samples.

Results

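Broad cells are the spermatogonia in which the most genes were detected, and narrow cells are those in which the fewest were. A gene counted as detected in a cell at an FPKM of at least 1 (fragments per kilobase, scaled to the fragments of that cell). Within each of 5 cell preparations, the top 1 in 3 cells by this count were called broad and the bottom 1 in 3 narrow, which gave 91 broad and 91 narrow cells of 278 in all. The other 96 cells lay between them. Because the count of detected genes chose the cells, and every gene adds to that count, differences in expression between broad and narrow cells are given as a description and were not tested. The EGFP label of each cell and its estimated sequencing depth were not used in the choice, and these were tested. The FPKM threshold itself ties the count to depth, as described below.

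All cells were EGFP-positive spermatogonia sorted from testes of untreated Id4-EGFP mice at postnatal day 6. Id4 encodes an inhibitor of DNA binding, and the reporter has been used to grade spermatogonia by their likeness to stem cells. The labels give neither the strain nor the promoter context of the reporter, and they state that testes of more than 1 pup were pooled before the sort. Each cell was captured on a Fluidigm C1 chip, imaged, and assigned to 1 of 4 EGFP quartiles, Q1 being bright and Q4 dim. Wells with dead cells, more than 1 cell or debris had been left out by the submitters. Broad and narrow cells thus share the mouse line, the age, the sort and the chip, and each preparation supplied as many broad as narrow cells: 8, 20, 12, 25 and 26 in preparations 1 to 5. The preparation is the unit of replication (n = 5), and no label tells if litters differed between preparations.

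At this age the seminiferous cords hold stem cells, progenitors and the earliest differentiating spermatogonia. Stem cells respond to GDNF through the receptor pair GFRA1 and RET, while the receptor tyrosine kinase KIT marks the onset of differentiation. These cells divide by mitosis and remain joined by cytoplasmic bridges as they differentiate. The number of genes detected in a cell is known to depend on its RNA content, its place in the cell cycle, the efficiency of cDNA synthesis and the sequencing depth. It is also known to depend on how evenly the RNA is spread over genes.

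The cells carried germ cell transcripts on both sides. Of 13 germ cell markers, 10 to 13 were detected in each broad cell (median 12) and 4 to 13 in each narrow cell (median 11). The RNA helicase gene Ddx4, the RNA-binding protein gene Dazl, the piRNA factor gene Mael and the ubiquitin hydrolase gene Uchl1 were detected in all 278 cells. Of 9 Leydig cell markers 7 were listed at 0 in every cell, as were the Sertoli cell genes Amh and Fshr. Other markers of these cells were detected in part of the 278 cells. Star of the Leydig list was detected in 55, and of the Sertoli list Rhox5 in 40, Clu in 28, Sox9 in 21 and Wt1 in 17. Preparation 3 stood apart, with 5453 detected genes per broad cell and 3375 per narrow cell, below the corresponding means of the other preparations. A single broad cell of preparation 2 had 11 of 15 Sertoli markers detected, against at most 4 in any other cell, together with all 13 germ cell markers. With 7282 detected genes it ranked 17 in its preparation, and without it the counts of genes given below were 2626 higher and 44 lower in broad cells, against 2623 and 43 with it.

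Broad cells had 6769 ± 795 detected genes and narrow cells 5336 ± 1332 (SD of 5 preparation means). In preparations 1 to 5, broad cells averaged 7410, 7386, 5453, 6768 and 6831 detected genes, and narrow cells averaged 6794, 6325, 3375, 5220 and 4965. Broad cells of one preparation therefore overlapped in number with narrow cells of another, and the groups are relative to their own preparation. The difference within a preparation was 1434 ± 596 genes on average and ran between 616 and 2078. Preparation 1, with the fewest cells, had the smallest. At an FPKM of at least 5, the same broad cells had 5592 ± 563 detected genes and the same narrow cells 4437 ± 988.

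The distribution had no gap at the group boundaries. In preparation 1 the lowest broad cell had 7327 detected genes and the next cell 7326, and in preparation 5 these counts were 6340 and 6251. At the other boundary the highest narrow cell had 7109 detected genes in preparation 1, against 7120 in the next cell, and 4073 in preparation 3, against 4206. Across the series the highest count of a broad cell was 7706, in preparation 2, and the lowest of a narrow cell was 2569, in preparation 3.

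**Figure D1:**
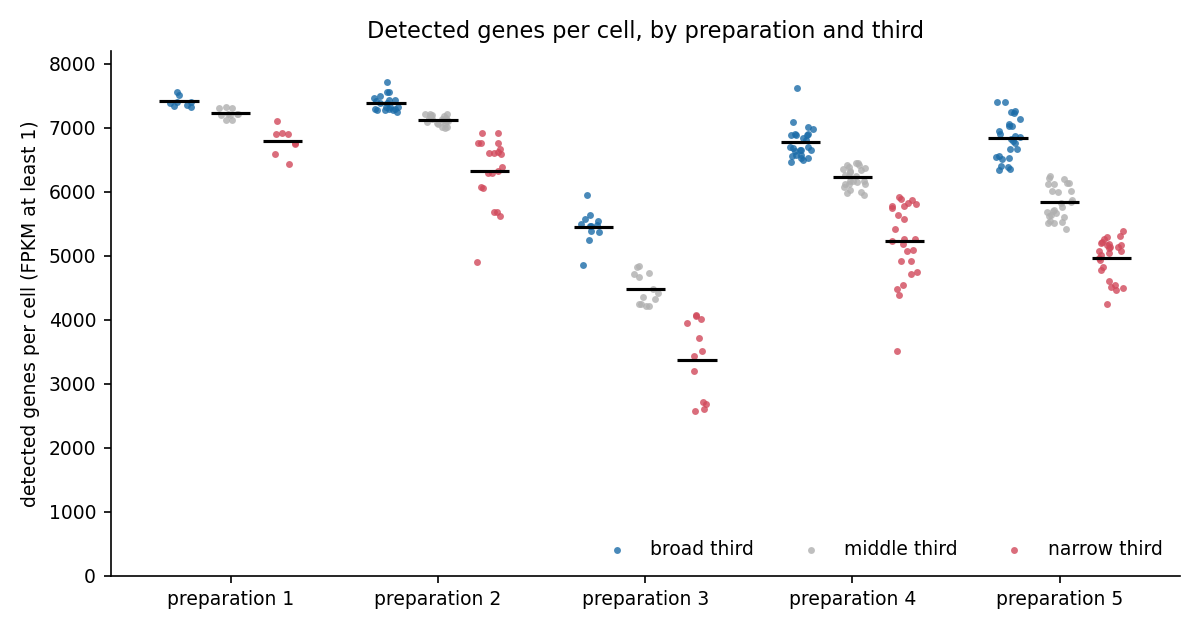
Detected genes per cell (FPKM of at least 1, vertical axis) in each of the 5 preparations (horizontal axis), with broad cells to the left of middle and narrow cells. Each point is 1 cell and each bar the mean of a group. The means of broad cells run between 5453 and 7410 and those of narrow cells between 3375 and 6794, and both are lowest in preparation 3.

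By the estimate available, broad cells had fewer mapped fragments than narrow cells. Depth is not given in the sources used here, so mapped fragments per cell were worked out from the FPKM step that 1 fragment makes in low genes. The estimate was 592212 ± 120934 fragments in broad cells and 701081 ± 119471 in narrow cells (SD, n = 5). The log2 ratio of broad to narrow was -0.29 ± 0.18 (SD, n = 5) and lay below 0 in 5 of 5 preparations, between -0.48 and -0.04. A two-sided exact permutation test over the 5 preparations gave p = 0.0625, the smallest p that 5 preparations allow, and 0.125 after Benjamini-Hochberg adjustment over 4 tests, so it could not pass a threshold of 0.05. Spearman's rho between detected genes and estimated depth over the cells of a preparation was -0.32, -0.52, -0.27, -0.06 and -0.14 in preparations 1 to 5, given as a description of cells that share a library pool. When broad and narrow cells were chosen after removing the linear relation to depth, the difference in detected genes was 1372. At the median depth of 677044 fragments, 1 fragment amounted to an FPKM of 1 in a transcript of 1477 bases, so detection at this threshold rests on very few fragments for shorter transcripts. In a cell of lower depth 1 fragment amounts to a higher FPKM, so single fragments pass the fixed threshold in longer transcripts. Estimated depth is thus not independent of the count that chose the cells. The part of this link in the ratio and in rho was not tested.

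The RNA of broad cells was spread over more genes. The 100 genes with the highest values held 24 ± 1.13% of the summed FPKM of broad cells and 25.6 ± 1.92% of that of narrow cells (SD, n = 5). The share was lower in broad cells in 5 of 5 preparations, though barely in preparation 1 (23.67% and 23.75%). To reach 50% of the summed FPKM took 462 ± 48.2 genes in broad cells and 397 ± 66.6 in narrow cells (SD, n = 5). The median FPKM of a detected gene was 26.6 ± 5.43 in broad cells and 38.3 ± 18.3 in narrow cells (SD, n = 5). Preparation 3 had the widest gap, with 36.2 and 70.6. In preparations 1, 2, 4 and 5 the values were 22.6, 24.6, 25.4 and 24.4 in broad cells and 25.8, 28.7, 32.8 and 33.7 in narrow cells. FPKM values are relative to the total of the cell, so additional genes in a cell lower the values of its other genes.

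Broad cells were brighter in EGFP by the mean rank of their labels. Quartile numbers averaged 2.03 ± 0.17 in broad cells and 2.69 ± 0.20 in narrow cells, where a lower number is brighter (SD, n = 5). In preparations 1 to 5 the means were 1.88, 2.25, 2.08, 1.84 and 2.12 in broad cells and 2.38, 2.65, 2.92, 2.80 and 2.73 in narrow cells, so that the preparation means did not overlap. The difference was -0.66 ± 0.23 and lay below 0 in 5 of 5 preparations, between -0.96 and -0.40 (exact permutation test, two-sided, p = 0.0625, adjusted p = 0.125). This p is again the smallest the design allows. The relation of brightness to detected genes was known from earlier results of the same cells and is not independent evidence here.

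The shift came from both ends of the brightness scale but was uneven between preparations. Of 91 broad cells, 35 were Q1, 25 Q2, 23 Q3 and 8 Q4. Of 91 narrow cells, 21 were Q1, 18 Q2, 17 Q3 and 35 Q4. Bright Q1 cells made up 62.5%, 25%, 50%, 44% and 30.8% of broad cells in preparations 1 to 5, against 12.5%, 25%, 16.7%, 24% and 26.9% of narrow cells. The difference averaged 21.4 ± 20.8 percentage points (SD, n = 5), was above 0 in 4 of 5 preparations and 0 in preparation 2 (exact permutation test, two-sided, p = 0.125, adjusted p = 0.125). Dim Q4 cells made up 25%, 10.0%, 16.7%, 0% and 7.69% of broad cells, against 12.5%, 35%, 41.7%, 44% and 42.3% of narrow cells. Their share was lower in broad cells in preparations 2 to 5 and higher in preparation 1, where 2 broad cells and 1 narrow cell were Q4. The difference averaged -23.2 ± 21.5 percentage points (exact permutation test, two-sided, n = 5, p = 0.125, adjusted p = 0.125). None of the 4 tests passed after adjustment.

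**Figure D2:**
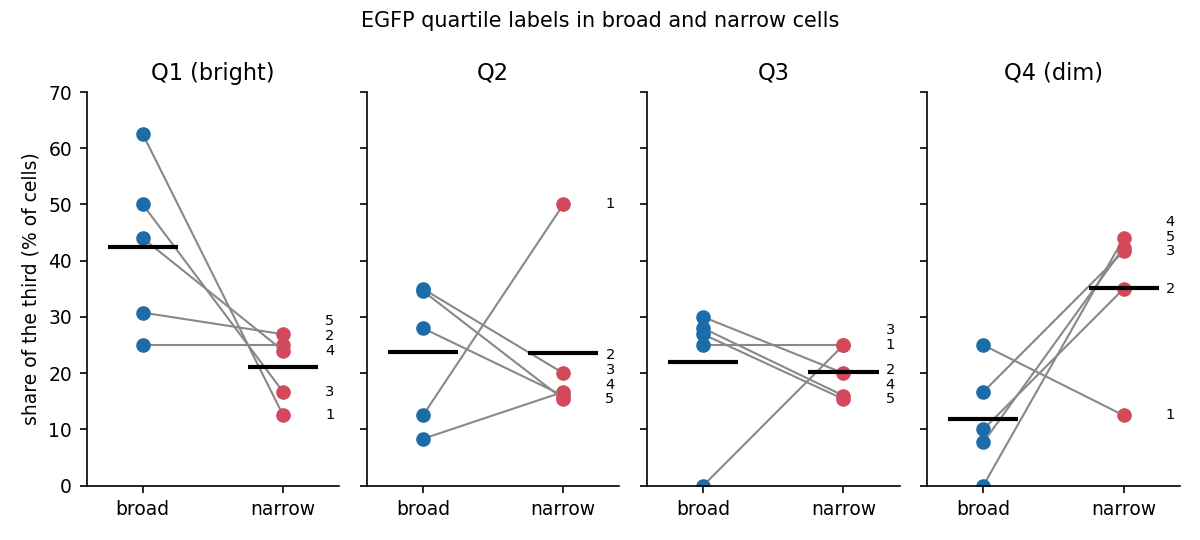
Share of broad (left) and narrow (right) cells in each EGFP quartile, in percent, with 1 line per preparation, its number at the right and a bar for the mean of 5. Q1 averages 42.5% of broad and 21% of narrow cells, and Q4 averages 11.9% and 35.1%.

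Across genes, the typical difference was small and in favour of broad cells. Of 10452 genes that were detected in 10% or more of the cells, 9349 had a mean difference above 0 on the log2(FPKM + 1) scale, and the median difference was 0.45. The median over genes was 0.12, 0.29, 0.62, 0.47 and 0.54 in preparations 1 to 5. A gene was counted as higher or lower in broad cells only when all 5 preparations had that sign. By this rule 2623 genes (25.1%) were higher and 43 (0.411%) lower. Since the cells were chosen by how many genes they held, these counts are the background for the gene groups that follow and support nothing by themselves. Without preparation 1 the signs of the 4 other preparations gave 4429 genes higher and 81 lower, and without preparation 3 they gave 3264 and 144.

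The genes higher in broad cells were most often those detected in the larger part of cells but not in all. Among genes detected in 10% to 25% of cells 12.6% were higher in broad cells in every preparation, among those in 50% to 75% of cells 33%, among those in 75% to 95% of cells 35.5%, and among those in 95% to 100% of cells 20.8%. The corresponding median differences were 0.18, 0.67, 0.74 and 0.31. Among the 297 genes detected in every cell, 5.39% were higher and 6.73% lower in broad cells, with a median difference of -0.01. In the cells that had a gene detected, its mean log2 level was lower in broad cells for the typical gene, by a median of -0.19 ± 0.23 (SD, n = 5), below 0 in 5 of 5 preparations. Broad cells thus detected a typical gene more often and, where detected, at a lower relative level. Among transcripts under 1000 bases 13.2% were higher and 1.86% lower in broad cells, and among those of 2000 to 4000 bases 26.4% were higher and 0.324% lower. By chromosome the share of genes higher in broad cells ran between 21.1% (chromosome 4) and 28.4% (chromosome 15), and it was 27.7% on the X chromosome. Protein-coding genes had 25.3%, against 16.9% of 65 long intergenic noncoding RNAs and 8.93% of 56 antisense genes, which were also detected in fewer cells.

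Genes of G2 phase and mitosis formed the list with the largest difference. Of 39 measured, 28 were higher in broad cells in all 5 preparations and 0 lower, against 25.1% and 0.411% of all genes, and all 39 had a mean difference above 0. The list median was 1.23, which is 0.78 above that of all genes. Its medians in preparations 1 to 5 were 0.36, 1.16, 1.81, 1.26 and 1.22, the smallest being in preparation 1. In that preparation the immediate early (0.73), stem cell (0.51), Polycomb and Trithorax (0.39) and endothelial (0.76) lists had larger medians. A broad cell had a mean of 35.9 ± 1.23 of the 39 genes detected, a middle cell 33.2 ± 4.54 and a narrow cell 29.4 ± 5.34 (SD, n = 5). The median number per broad cell was 37.5, 37.5, 34.5, 37 and 37 in preparations 1 to 5, against 37, 31, 23, 30 and 29.5 per narrow cell. The groups nearly coincide in preparation 1 and lie furthest apart in preparation 3. Most narrow cells therefore still held the larger part of the mitotic list: 85 of 91 had at least 20 of the 39 genes detected, and 1 had under 10.

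Levels of mitotic genes also differed among the cells that had them. In detecting cells the median difference of the list was 0.33, 0.48, 0.28 and 0.38 in preparations 1, 2, 4 and 5, in favour of broad cells, and -0.37 in preparation 3. Over all genes this quantity was below 0 in every preparation. Among genes detected in 75% to 95% of cells, 17 of 23 mitotic genes were higher in broad cells in all 5 preparations, beside 35.5% of all genes in that range of detection.

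Among the regulators, Aurka, which encodes the Aurora A kinase of the spindle poles, had the largest difference on the list. It was detected in 85.6% of broad cells and 54% of narrow cells (means of 5 preparations). Its mean FPKM in preparations 1 to 5 was 38.2, 59.7, 54.8, 76.3 and 85 in broad cells and 47, 25.8, 43, 67.8 and 43.1 in narrow cells. The means of preparation 1 lay the other way, but on the log2(FPKM + 1) scale, where cells without the transcript weigh more, broad cells were higher in 5 of 5 preparations, by 1.88 ± 0.83 (SD). Gtse1, a microtubule-binding protein of G2 and S phase, averaged 37.1, 53.8, 53.4, 35.8 and 45 FPKM in broad cells and 23.6, 25.1, 49.9, 41.5 and 30.6 FPKM in narrow cells, with a log2 difference of 1.75 ± 0.65. Ttk, the MPS1 kinase of the spindle checkpoint, differed by 1.76 ± 1.49 and was higher in 4 of 5 preparations, preparation 2 being the exception. On GRCm38, Aurka lies on chromosome 2 at 172356190 to 172370535 (minus strand) and Gtse1 on chromosome 15 at 85859745 to 85876573 (plus strand), and exons of neither overlap another annotated gene.

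Other members of the list, chosen after their values were seen, show its spread. Cdk1, the mitotic cyclin-dependent kinase, differed by 1.5 ± 1.17, and its partner cyclin gene Ccnb1 by 0.88 ± 0.55. Cdc20, an activator of the anaphase-promoting complex, differed by 1.48 ± 0.75, and Prc1, which bundles microtubules of the central spindle, by 1.41 ± 0.71. Ckap2l, a spindle-associated protein gene, differed by 1.66 ± 0.74. The kinetochore genes Ndc80 and Cenpf differed by 1.07 ± 0.30 and 0.48 ± 0.11, and Cenpf had the smallest SD of the list. The proliferation marker Mki67 differed by 0.92 ± 0.46 and the topoisomerase gene Top2a by 0.89 ± 0.75. These genes had the higher mean log2 value in broad cells in every preparation. Plk1, a mitotic kinase, was higher in 4 of 5 (1.06 ± 0.79), and Hjurp, the chaperone that loads the centromeric histone, in 2 of 5 (0.11 ± 0.51).

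Promoters of genes expressed in G2 and mitosis are known for pairing CCAAT boxes, bound by NF-Y, with a CHR element, through which the DREAM complex represses them outside those phases. In the 250 bases upstream of RefSeq transcription starts (GRCm38.p6), read on both strands, a CHR core (TTTGAA or TTCGAA) was found in 40.5% of 37 promoters of the G2 and mitosis list (34 of 39 genes matched) and in 17.1% of all 32851 promoters. A CCAAT box was found in 81.1% of the 37 and in 33.8% of all. Promoters of the G1 to S and replication list, described below, held a CHR core in 17.1% and a CCAAT box in 56.1% of 41 cases. Ribosomal protein promoters held them in 5.88% and 27.9% of 68 cases. These matches describe letters in a window and are no evidence of binding. To show this arrangement, 4 members that were higher in 5 of 5 preparations were chosen after their values were seen, as those of largest difference with both motifs in the 150 bases next to the start. They are Ckap2l at chr2:129297213-129297362 (minus strand), Cdk1 at chr10:69352913-69353062 (minus), Cdc20 at chr4:118437344-118437493 (minus) and Prc1 at chr7:80294326-80294475 (plus). Each is written 5′ to 3′ in the direction of the gene, ending at the base before the start, with CHR cores and CCAAT boxes, or their reverse complements, in capitals.
Ckap2l: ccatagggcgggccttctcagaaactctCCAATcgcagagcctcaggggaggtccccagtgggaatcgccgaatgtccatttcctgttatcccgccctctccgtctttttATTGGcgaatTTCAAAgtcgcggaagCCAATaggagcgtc
Cdk1: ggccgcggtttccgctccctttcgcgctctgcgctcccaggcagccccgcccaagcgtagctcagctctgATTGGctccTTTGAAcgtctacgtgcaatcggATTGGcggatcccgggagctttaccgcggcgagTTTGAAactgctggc
Cdc20: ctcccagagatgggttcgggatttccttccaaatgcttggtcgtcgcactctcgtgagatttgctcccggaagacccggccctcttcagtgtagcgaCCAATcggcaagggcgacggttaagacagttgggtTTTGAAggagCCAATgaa
Prc1: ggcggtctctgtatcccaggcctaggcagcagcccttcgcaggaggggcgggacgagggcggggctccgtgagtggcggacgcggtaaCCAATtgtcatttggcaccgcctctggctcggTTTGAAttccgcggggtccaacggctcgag
The CHR core lies once in Ckap2l, Cdc20 and Prc1 and in 2 places in Cdk1, and CCAAT boxes number 3 in Ckap2l, 2 in Cdk1, 2 in Cdc20 and 1 in Prc1.

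Genes of the G1 to S transition and DNA replication differed in the same direction and by less. Of 46, 20 (43.5%) were higher in broad cells in 5 of 5 preparations and 0 lower, beside 25.1% and 0.411% of all genes. The list median was 0.81, or 0.36 above that of all genes. By preparation the medians were 0.18, 0.31, 1.43, 0.58 and 0.66, preparation 3 being far above the others. A broad cell had a mean of 41.6 ± 2.09 of the 46 genes detected and a narrow cell 35.6 ± 5.95. The largest differences were those of Orc1, the origin recognition subunit (1.52 ± 0.67), Pold2, an accessory subunit of DNA polymerase delta (1.47 ± 0.69), and Msh6, a mismatch recognition protein (1.33 ± 0.96). Orc1 averaged 52.8, 29.4, 43.8, 45 and 32.8 FPKM in broad cells of preparations 1 to 5 and 49.5, 36.2, 36.7, 13.2 and 22.3 FPKM in narrow cells, so its mean FPKM in preparation 2 lay the other way from its mean log2 value. Some replication genes were near even between the groups: Mcm7, of the replicative helicase, differed by 0.04 ± 0.46, and Pola1, the catalytic subunit of DNA polymerase alpha, by -0.41 ± 0.68.

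**Figure D3:**
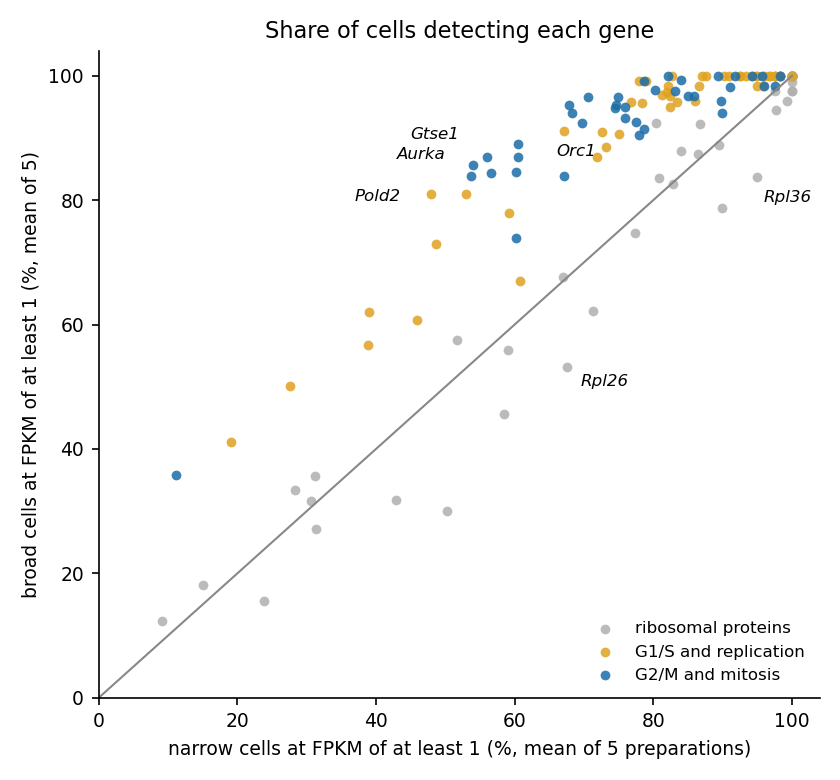
Share of broad cells (vertical axis) and of narrow cells (horizontal axis) at an FPKM of at least 1, in percent and as means of 5 preparations, for each gene of 3 lists. Each point is 1 gene and the line marks equal shares. All genes of G2 and mitosis and of G1/S but 1 lie above it, such as Aurka at 85.6% and 54%, while ribosomal protein genes lie on both sides of it.

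Among single genes, the 12 largest differences, taken among genes with the same sign in 5 of 5 preparations, ran between 1.98 and 2.35. They were led by Mettl4, an adenine methyltransferase, with 2.35 ± 0.84. Mettl4 averaged 110, 116, 103.6, 128 and 208 FPKM in broad cells of preparations 1 to 5 and 20.9, 93.3, 36.9, 198 and 97.6 FPKM in narrow cells. The means overlap, and in preparation 4 the mean FPKM lay the other way, while the share of cells detecting it was 84.7% in broad and 54.1% in narrow cells. Taf1b, a subunit of the selectivity factor of RNA polymerase I, averaged 49.5, 41.5, 64.5, 26.6 and 36.8 FPKM in broad cells and 10.6, 25, 8.19, 12.7 and 20.3 FPKM in narrow cells, with no overlap of the preparation means. Its log2 difference was 2.21 ± 0.69. Taf13, a subunit of the general factor TFIID, differed by 2.27 ± 1.29. On GRCm38, Mettl4 lies on chromosome 17 at 94722590 to 94750019, Taf1b on chromosome 12 at 24498359 to 24558539 and Taf13 on chromosome 3 at 108571698 to 108583222.

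Others of the 12 were Gt(ROSA)26Sor, the noncoding transcript of the Rosa26 locus (2.08 ± 1.02), the zinc finger gene Zfp414 (2.06 ± 1.14), the haem oxygenase gene Hmox1 (2.03 ± 1.16) and the G protein subunit gene Gnai3 (2.01 ± 1.28). Gt(ROSA)26Sor shares exonic bases with Thumpd3 on the opposite strand, and Zfp414 with Gm20507 on the same strand, so their values are uncertain. Coq10b, of coenzyme Q metabolism, and Shcbp1, a protein of the midbody, had 2.0 ± 1.24 and 2.0 ± 1.14, and the kinetochore gene Cenpl had 1.98 ± 0.95. The unnamed transcripts A030009H04Rik and 2610305D13Rik had 2.06 ± 2.09 and 2.01 ± 1.48. Shcbp1 shows how much preparation 3 carried: its mean there was 102 FPKM in broad cells and 0.99 FPKM in narrow cells, against 48.1 and 28 FPKM in preparation 1.

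By share of cells, the widest gaps included the following. Fam221a was detected in 79.1 ± 12.6% of broad cells and 35.8 ± 21% of narrow cells (SD, n = 5). Nek4, a kinase gene, was detected in 52.7% and 10.8%, Lamtor3, of the lysosomal Ragulator complex, in 65.1% and 23.9%, and Dclre1a, of DNA crosslink repair, in 69.9% and 29%. Cxxc5, a CXXC zinc finger gene, was detected in 81.6% and 39.1%, the focal adhesion gene Pxn in 79% and 38.4%, and Gm13212 in 74.8% and 35.2%.

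**Figure D4:**
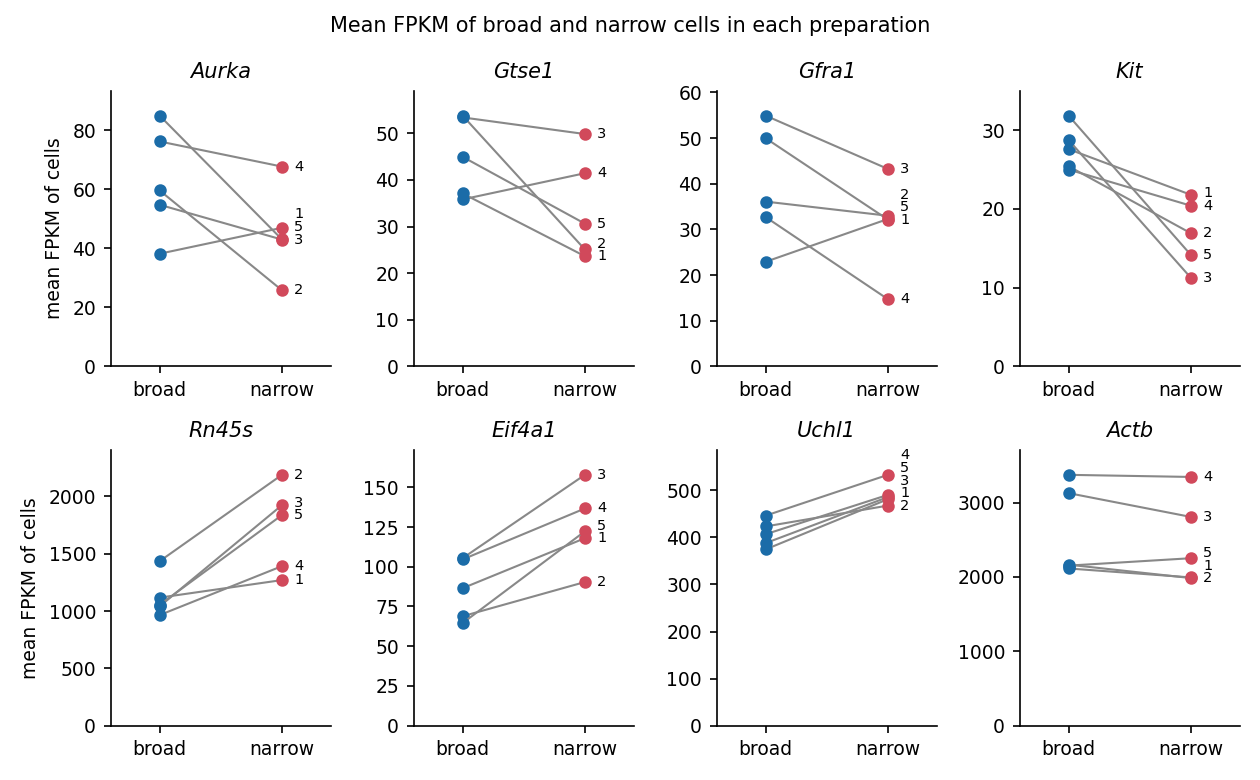
Mean FPKM of broad (left) and narrow (right) cells for 8 genes, with 1 line per preparation and its number at the right; each vertical axis starts at 0. Kit is higher in broad cells in all 5 preparations, Rn45s, Eif4a1 and Uchl1 are lower in all 5 on the deposited scale (Uchl1 turns to higher at a common 75th percentile), and Aurka, Gtse1, Gfra1 and Actb have lines in both directions.

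Few genes were lower in broad cells. Rn45s, the ribosomal RNA precursor, averaged 1117, 1435, 1041, 965 and 1054 FPKM in broad cells of preparations 1 to 5 and 1270, 2189, 1924, 1392 and 1837 FPKM in narrow cells. It was lower in broad cells in each preparation, by a log2 difference of -0.60 ± 0.27, and the means overlapped between preparations, the highest of broad cells being above the lowest pair of narrow ones. The libraries were made from polyadenylated RNA, so this transcript measures what escaped that selection. Eif4a1, the RNA helicase of translation initiation, averaged 86.5, 68.8, 105, 105 and 64.5 FPKM in broad cells and 118, 90.4, 158, 137 and 122 FPKM in narrow cells (-0.49 ± 0.19). It lies on chromosome 11 at 69666936 to 69672423, and 2 small genes (Gm22988 and Gm24029) overlap its exons on the same strand. Acot13, a thioesterase gene, averaged 189, 150, 154, 160 and 175 FPKM in broad cells and 300, 241, 325, 281 and 251 FPKM in narrow cells, with no overlap (-0.75 ± 0.51).

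The other lowest genes were Rpl36 (-0.80 ± 0.72), the small nucleolar RNA Snora78 (-0.68 ± 0.35), the macroH2A gene H2afy2 (-0.57 ± 0.23), the mitochondrial leucyl-tRNA synthetase gene Lars2 (-0.53 ± 0.39), and the ATP synthase gene Atp5h (-0.50 ± 0.22). They also included Rps10 (-0.48 ± 0.42), the transporter gene Slc10a7 (-0.48 ± 0.29), the splicing factor gene Sf3a2 (-0.47 ± 0.52) and Gm4890 (-0.41 ± 0.44). Uchl1 averaged 374, 423, 388, 446 and 407 FPKM in broad cells and 481, 468, 486, 533 and 490 FPKM in narrow cells, without overlap. Its log2 difference of -0.16 ± 0.14 turned to 0.32 when each cell was scaled to a common 75th percentile of its values above 0. That scaling lifts broad cells, whose values above 0 are lower: the median of all genes moves by 0.23, to 0.67, and 5 genes are then lower in broad cells in 5 of 5 preparations, against 43. Under it the difference of Rn45s was -0.12 and that of Eif4a1 -0.02. The 5 genes, named after their values were seen, were 2610008E11Rik, Gm16023, H2afy2, Map3k6 and Snora78.

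Among lists with more than 2 measured genes, cytosolic ribosomal protein genes lay furthest below all genes on the deposited scale. Their median difference was -0.11, with 10 of 79 lower in broad cells in 5 of 5 preparations and 0 higher, but at a common 75th percentile the median was 0.33, with 0 lower and 16 higher. Relative to all genes the list lay below in both cases, by -0.55 and -0.34. Median detection on the list was 100% of the cells in either group, unlike that of all genes. On the deposited scale, genes detected in every cell had a median of -0.01, with 5.39% higher and 6.73% lower. Those detected in 95% to 100% of cells had a median of 0.31. The 10 were Rpl3, Rpl7, Rpl13, Rpl27a, Rpl35, Rpl36, Rps3a1, Rps9, Rps10 and Rps25, with differences between -0.80 and -0.09 on the deposited scale. At a common geometric mean of the genes detected in every cell, 15 of 79 were lower and 0 higher (median -0.12), so the sign of these small differences depends on which scaling is used. Rps9 averaged 748 ± 47.8 FPKM in broad cells and 855 ± 77.3 in narrow cells, and Rpl7 averaged 225 ± 43.6 and 280 ± 64 (SD, n = 5). Ribosomal protein genes have many near-identical pseudogene copies, among which the quantifier may have divided reads, so the value of any single member is uncertain. A broad cell had a mean of 68.1 ± 2.48 of the 79 genes detected and a narrow cell 68.7 ± 1.86, so these genes added nothing to the difference in breadth. Preparation 3 went the other way, with a median of 0.13 against -0.22 to -0.13 in the others, and without it 35 members were lower and 1 higher in all 4 preparations.

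Nuclear-encoded respiratory chain genes and the proteasome lay between. Of 73 respiratory chain genes, 7 were higher (Ndufa12, Ndufb6, Ndufs1, Ndufv1, Uqcrc1, Uqcrc2 and Cycs) and 3 lower (Cox4i1, Cox8a and Atp5h) in broad cells in all 5 preparations. These were 9.59% and 4.11% of the list, beside 25.1% and 0.411% of all genes. Median detection on the list was 100% of broad and 98.3% of narrow cells. Genes detected in 95% to 100% of cells had a median difference of 0.31, and those detected in every cell -0.01. The list median was 0.09, which is -0.36 relative to all genes and -0.12 at the common 75th percentile. At that scaling 36 of the 73 were higher and 0 lower, and without preparation 3 there were 7 higher and 13 lower in all 4 preparations, so the genes counted as lower depend on both. Preparation 3 set the sign of the median: the median was 0.85 there and -0.10 to 0.02 in the others, and -0.03 without it. Of 31 proteasome subunit genes, 5 (16.1%) were higher and 1 (3.23%), Psma7, lower, with a median of 0.18. Glycolytic genes had a median of 0.31 with 3 of 18 (16.7%) higher. In the cells detecting them they stood lower in broad cells in 5 of 5 preparations (-0.29 ± 0.17), as did the median of all genes (-0.19 ± 0.23).

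**Figure D5:**
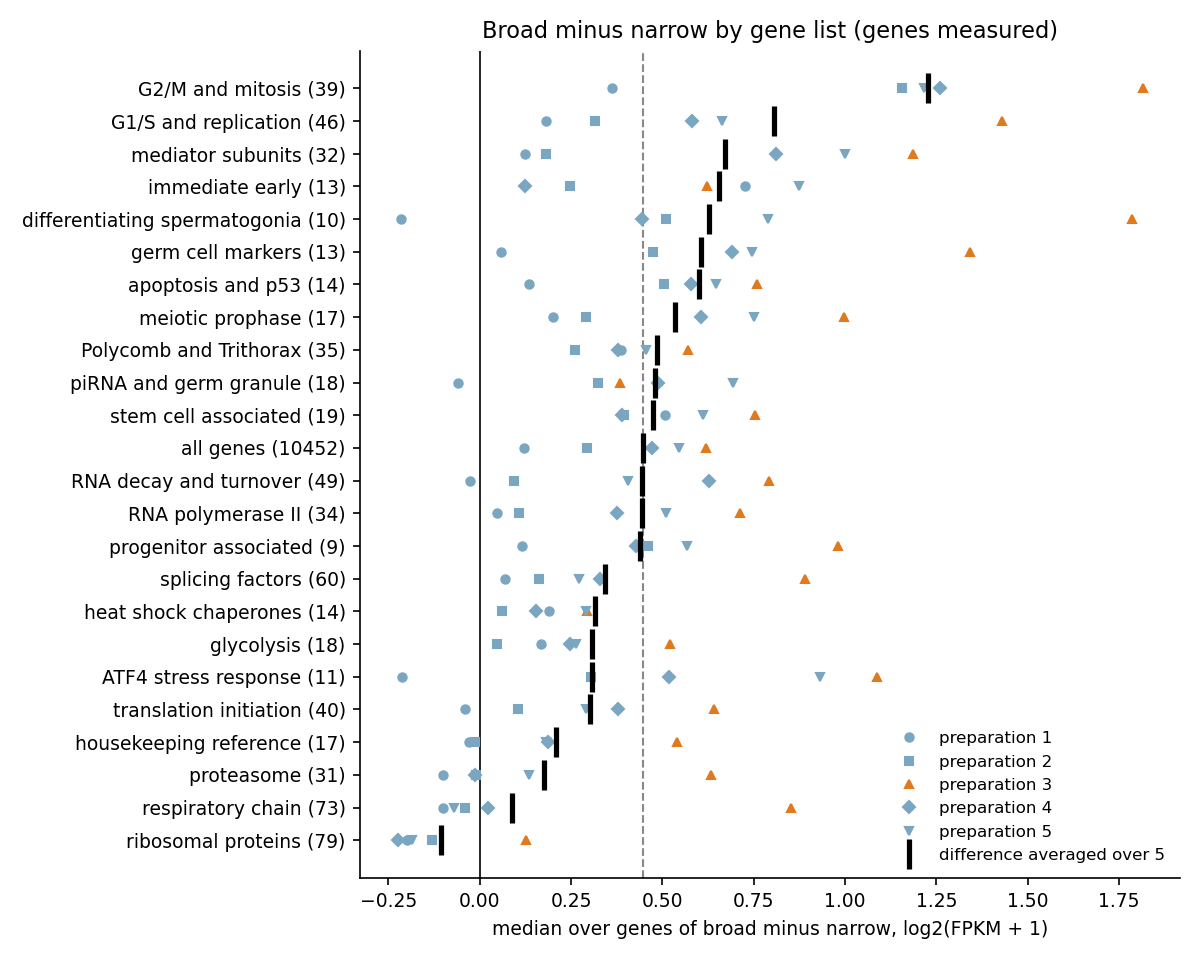
Median over genes of the difference in log2(FPKM + 1), broad minus narrow, for 23 gene lists and all genes, with the number of genes measured in brackets. Symbols are the 5 preparations (preparation 3 in orange), black bars the median of the differences averaged over preparations, and the dashed line the median of all genes, 0.45. Genes of G2/M and mitosis lie furthest right at 1.23 and ribosomal proteins furthest left at -0.11, a sign that holds on the deposited scale and turns at a common 75th percentile.

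The machinery that makes and processes messenger RNA had list medians on both sides of that of all genes. Relative to all genes they were -0.002 for RNA polymerase II, 0.22 for Mediator and -0.10 for splicing factors. At a common 75th percentile they were 0.15, 0.24 and 0.11. In the same order, 29.4%, 28.1% and 28.3% of the genes were higher in broad cells in 5 of 5 preparations, near the 25.1% of all genes. Of 34 genes of RNA polymerase II and its general factors 10 were higher in broad cells in all 5 preparations and 0 lower (median 0.44), including Gtf2b, the factor TFIIB (1.52 ± 0.89), and Ercc3, the XPB helicase of TFIIH (1.3 ± 0.74). Of 32 Mediator subunits 9 were higher and 0 lower (median 0.67). Med18, of the head module, averaged 25.6, 16.4, 32.3, 18.4 and 19.2 FPKM in broad cells of preparations 1 to 5 and 15.9, 14.8, 24, 11.2 and 9.24 FPKM in narrow cells (1.34 ± 0.29). Of 60 splicing factors 17 were higher, among them the serine and arginine rich factor gene Srsf4 (1.49 ± 0.92), and 1 lower, Sf3a2, with a median of 0.34. In detecting cells the splicing factors stood higher in broad cells in 5 of 5 preparations, by a median of 0.10 ± 0.05.

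Chromatin, RNA turnover and translation genes gave shares on both sides of the 25.1% of all genes higher in 5 of 5 preparations. The shares were 37.1% of Polycomb and Trithorax, 18.4% of RNA decay and 12.5% of translation initiation genes. Of 35 Polycomb and Trithorax group genes 13 were higher and 0 lower (median 0.49). They included Ezh2, the histone H3 lysine methyltransferase of PRC2 (0.83 ± 0.38), its partner Suz12 (0.62 ± 0.26), Bmi1 of PRC1 (1.15 ± 0.45) and Rbbp5 of the COMPASS complexes (1.36 ± 0.64). Rbbp5 was detected in 78.9% of broad cells and 39.9% of narrow cells. Of 49 RNA decay genes 9 were higher and 0 lower (median 0.44), led by Edc3, an enhancer of decapping, with 1.48 ± 0.48. Of 40 translation initiation genes 5 were higher and 1, Eif4a1, lower (median 0.30). Of 17 housekeeping reference genes 1 was higher and 0 lower (median 0.21), and Actb, the cytoplasmic actin gene, differed by 0.08 ± 0.10.

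Genes used to order spermatogonia along differentiation had positive median differences in the lists of every stage, as did all genes. Of 19 stem cell associated genes 3 were higher and 0 lower in 5 of 5 preparations (median 0.47), of 9 progenitor genes 2 and 0 (0.44), of 10 genes of differentiating spermatogonia 2 and 0 (0.63), and of 17 genes of meiotic prophase 5 and 0 (0.54). These compare with 25.1% of all genes higher. The stem cell count moved from 3 to 8 when cells were chosen after removing the relation to depth, and to 7 with a pseudocount of 0.1, with an FPKM of at least 5 as detection or at a common 75th percentile. Relative to all genes the 4 medians were 0.03, -0.01, 0.18 and 0.09. With cells chosen within each preparation and quartile the stem cell count was 3. The 4 medians were then 0.16, 0.78, 0.60 and 0.31, beside 0.42 of all genes, so their place relative to all genes depends on how EGFP labels are shared out. Gfra1 averaged 50, 36.1, 54.9, 32.7 and 22.9 FPKM in broad cells of preparations 1 to 5 and 32.2, 33, 43.2, 14.7 and 32.3 FPKM in narrow cells. It was detected in 84.4% of broad and 59.4% of narrow cells, with a log2 difference of 1.29 ± 0.38. Kit averaged 27.6, 25.4, 28.8, 25 and 31.9 FPKM in broad cells and 21.8, 16.9, 11.3, 20.4 and 14.2 FPKM in narrow cells, with no overlap (1.18 ± 0.77). It was detected in 75.6% of broad and 45.1% of narrow cells. Exons of Gfra1 (chromosome 19, 58235604 to 58455909) overlap Gm16277 on the opposite strand, and those of Kit (chromosome 5, 75574916 to 75656722) overlap no annotated gene.

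Detection chose the cells, so the share of cells with both transcripts is set beside the share that the separate detection rates give. Both Gfra1 and Kit were detected in 54 of 91 broad cells and 22 of 91 narrow cells, neither in 4 and 26, Gfra1 alone in 21 and 28, and Kit alone in 12 and 15. Pooled over preparations, both were thus in 59.3% of broad cells and 24.2% of narrow cells, where the product of the shares with each transcript was 59.8% and 22.3%. By preparation, both were detected in 100%, 60%, 58.3%, 56% and 50% of broad cells, against 75%, 15%, 16.7%, 36% and 7.69% of narrow cells. The products by preparation were 100%, 63%, 50%, 57.6% and 53.3% in broad cells and 76.6%, 19.5%, 12.5%, 29.1% and 11.4% in narrow cells.

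Other stage genes varied. Itgb1, the integrin beta subunit (1.06 ± 0.29), and Cdh1, E-cadherin (0.83 ± 0.56), were higher in 5 of 5 preparations, as were the RNA-binding protein gene Lin28a (1.44 ± 1.22) and the transcription factor gene Sohlh1 (1.17 ± 0.88). Id4 differed by 0.47 ± 0.85 and was higher in 3 of 5. Etv5, an ETS factor induced by GDNF, differed by 0.41 ± 0.69 and Zbtb16, a repressor of undifferentiated spermatogonia, by 0.60 ± 0.57, each higher in 4 of 5. With cells chosen within each quartile, Id4 differed by -0.20 and Etv5 by -0.15. Stra8, induced by retinoic acid, differed by 0.99 ± 1.21 and was lower in preparation 1 alone. Nanos2, an RNA-binding protein of stem cells, was higher in 2 of 5 (-0.16 ± 1.12), and Neurog3, a progenitor factor, differed by 0.20 ± 0.62. Without preparation 1 both signs turned, to 0.28 for Nanos2 and -0.05 for Neurog3. Of the meiotic genes, Hormad1, an axis protein, differed by 1.78 ± 1.52, and by 4.37 in preparation 3, where narrow cells averaged 0.19 FPKM and broad cells 83.7 FPKM.

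Lists of genes that respond to handling or stress were small and had 1 to 3 members higher in broad cells in 5 of 5 preparations. These were 7.69% of immediate early, 21.4% of heat shock, 21.4% of apoptosis and 18.2% of ATF4 genes, beside 25.1% of all genes. Relative to all genes the list medians were 0.21, -0.13, 0.15 and -0.14 in the same order, and so on both sides. Of 13 immediate early genes 1 was higher in 5 of 5 preparations, the phosphatase gene Dusp1 (1.2 ± 0.30), and 0 were lower (median 0.65). Dusp1 was uneven between preparations, with 95.1, 36.1, 4.55, 23.1 and 14.6 FPKM in broad cells and 65.8, 26.6, 0, 13.8 and 29.2 FPKM in narrow cells, and it shares exonic bases with Ergic1 on the opposite strand. Fos, an AP-1 subunit, was higher in 4 of 5 (1.01 ± 1.07). Of 14 heat shock chaperone genes 3 were higher (Hspa5, Dnajb6 and Dnaja1; median 0.32), of 14 apoptosis and p53 genes 3 (Trp53inp1, Bcl2l11 and Apaf1; median 0.60), and of 11 genes of the ATF4 response 2 (Atf4 and the asparagine synthetase gene Asns; median 0.31), with 0 lower in each list. Of 18 piRNA and germ granule genes 3 were higher and 0 lower (median 0.48).

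Markers of other testis cells were detected in few of the cells or at few members per cell. Of 15 Sertoli markers, the summed FPKM ran between 0 and 1378 in broad cells and between 0 and 386 in narrow cells, the highest broad value being that of the cell described above. Of 10 endothelial markers, the sum ran between 0 and 96.6 in broad cells and between 0 and 551 in narrow cells, and the median cell of either group had 1 detected. Egfl7, the one marker of this list that was higher in broad cells in 5 of 5 preparations (0.99 ± 0.24), was detected in 53 of 91 broad cells and 26 of 91 narrow cells, while Esam was listed at 0 in every cell and Tie1 was detected in 1 cell. Exons of Egfl7 overlap other annotated genes on both strands. Of 12 peritubular myoid markers, Col1a1 was detected in 26 broad and 19 narrow cells and Pdgfra in 21 and 10. Dcn and Col3a1 of that list were at 0 in every cell. Of 10 macrophage markers Lyz2, Cx3cr1, C1qa, C1qb and C1qc were listed at 0 in every cell. Fcer1g, which encodes a signalling chain of Fc receptors, was detected in 24.2% of broad and 23.9% of narrow cells, and Cd68, a lysosomal glycoprotein gene, in 14% and 7.71%. The summed FPKM of this list ran between 0 and 170 in broad cells and between 0 and 463 in narrow cells. The part of such transcripts in the differences between broad and narrow cells was not tested beyond leaving out the cell with Sertoli markers, after which 27 of 39 genes of G2 and mitosis were higher in 5 of 5 preparations.

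Broad and narrow cells were also set side by side within each EGFP quartile, where few cells remained. Since broad cells exceed narrow cells of their preparation by choice, the direction of the difference in detected genes is given by the rule and only its size is described. Among Q1 cells the difference was 1316 ± 511 detected genes (35 broad and 21 narrow cells), among Q2 cells 1182 ± 529 (25 and 18), among Q3 cells 1743 ± 478 (23 and 17), and among Q4 cells 1529 ± 790 (8 and 35). Preparation 1 had 0 broad Q3 cells and preparation 4 had 0 broad Q4 cells, so that Q3 and Q4 rest on 4 preparations, and several combinations held 1 or 2 cells. The median difference over all genes was 0.38, 0.32, 0.55 and 0.43 in Q1 to Q4. The median of the G2 and mitosis list was 0.83, 0.58, 1.48 and 1.66. The share of its 39 genes higher in every preparation with both groups was 20.5%, 17.9%, 53.8% and 59%, beside 10.5%, 6.26%, 18.1% and 11.3% of all genes. These shares cannot be set against each other, since Q3 and Q4 need the same sign in 4 preparations and Q1 and Q2 in 5. Whether the mitotic difference depends on EGFP was not tested.

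Single genes followed with more scatter. Rn45s was lower in broad cells on average in each quartile, by -0.57, -0.57, -0.74 and -0.55, and Eif4a1 by -0.31, -0.62, -0.46 and -0.89. Aurka differed by 0.52 ± 2.92, 1.70 ± 1.93, 2.0 ± 1.51 and 4.15 ± 1.65 in the same order of quartiles (SD over preparations), and in Q1 and Q2 the spread exceeds the mean. Ribosomal protein genes had medians of -0.02, -0.25, -0.10 and -0.05, on the deposited scale. When broad and narrow cells were instead chosen within each preparation and quartile, 2440 genes were higher and 40 lower in 5 of 5 preparations.

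The labels also allow bright cells to be compared with dim ones among cells of like breadth, a comparison the choice of cells did not use. Means of log2(FPKM + 1) for each preparation, breadth group and quartile were fitted with limma, with a block for each preparation and breadth group. Between Q1 and Q4 cells, 0 of 10452 genes (0.0%) passed an adjusted p of 0.05 among broad cells and 0 (0.0%) among narrow cells, and for 0 (0.0%) did the difference itself differ between broad and narrow cells. At an unadjusted p under 0.05 there were 357, 118 and 160 genes. Each count is below the share of 0.05 of 10452 genes that chance alone would give. The lowest limma adjusted p was 0.654, 0.9996 and 0.9999. Only 8 broad cells were Q4, and on simulated data the fit missed most changes put into the comparison within broad cells, so a count of 0 does not show that no gene differed.

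Of the stem cell list, Id4, Gfra1 and Etv5 had similar estimates of the difference with brightness on both sides, with wide errors. Those of Tcl1, also on that list, lay further apart and are given below. Estimates of the other list members are not given. Id4 was 1.69 ± 0.92 higher in Q1 than in Q4 among broad cells and 1.79 ± 0.93 among narrow cells (log2 difference ± SE), and the broad value minus the narrow one was -0.11 ± 1.31. The corresponding values of Gfra1 were 1.64 ± 1.04, 1.81 ± 1.05 and -0.17 ± 1.48, and those of Etv5 1.29 ± 0.92, 1.46 ± 0.93 and -0.17 ± 1.3. Stra8 had -0.88 ± 1.14, -1.87 ± 1.15 and 0.99 ± 1.62, and Kit -0.22 ± 0.89, -0.60 ± 0.90 and 0.38 ± 1.27. None of these passed in limma (adjusted p of 0.998 to 0.9999), and the errors of the last values allow differences of over 1 in either direction, so equal response is not shown.

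Genes of smallest p differed between the comparisons, and none passed. Among broad cells they were lower in Q1: Eppin, a protease inhibitor gene (-2.24 ± 0.51, limma adjusted p = 0.654), Dgat1, of triglyceride synthesis (-3.16 ± 0.75, limma adjusted p = 0.654), Cables2, Cdkn2d, an inhibitor of cyclin D kinases, and the claudin gene Cldn3 (limma adjusted p = 0.886 for each). Among narrow cells they included Tcl1, a coactivator of AKT kinases from the stem cell list, with 3.73 ± 1.18 in narrow and 0.55 ± 1.17 in broad cells. Ptpn12, a tyrosine phosphatase gene, had 2.68 ± 0.88 and -0.48 ± 0.87. The others there were Nmt2, an N-myristoyltransferase gene (-1.5 ± 0.47), Fnbp1l and Fgd5. For the difference between broad and narrow cells the smallest p was that of 3110001I22Rik (-4.35 ± 1.2), which shares exonic bases with Bfar on the same strand, followed by Cldn3, Cdkn2d, Eppin and Nbn.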

How the data were processed

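Values were the FPKM of 23354 genes in 278 single-cell libraries, deposited by the authors as 1 table. The tools were TopHat, Cufflinks, Picard and FastQC, per the submitters' processing notes, with the mm10 (GRCm38) genome. No versions or settings were found in the labels. Per the labels' protocols, cDNA was made from polyadenylated RNA on the C1 chip with SMARTer chemistry, and equal masses of cDNA went into Nextera libraries. The unit FPKM was read from the tools named and the values, since no header states it.

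Cells were ranked by genes at an FPKM of at least 1 within each preparation, taken as the Seq number in the titles. The lists of genes and the choice of cells were made with earlier results of these data known. Values were analysed as log2(FPKM + 1), a scale that understates changes of low genes, for the 10452 genes detected in 10% or more of the cells. Of the 23354 genes, 6247 were at 0 in every cell, and 21695 symbols matched the GENCODE M21 annotation. Means of cells were taken per preparation, and differences are broad minus narrow, averaged over 5 preparations with their SD. Since the labels do not say whether preparations are separate litters, p-values measure the spread between these preparations only.

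EGFP shares, quartile numbers and depth were tested with a two-sided exact permutation test that flips the sign of preparation differences. Quartiles were compared within breadth groups on 57 means with limma 3.58.1 in R 4.3.3, weighted by cells, with trend, a block for each preparation and breadth group, and 33 residual degrees of freedom. The block rests on the shared preparation: deviations of means from the same preparation correlated with a median r of 0.23 (lowest 0.14), against -0.08 between preparations. Depth was estimated from the step of 1 fragment in 2110 genes with 1 transcript of at least 1500 bases, and ran between 219125 and 1354088 fragments per cell. For 271 of 278 cells, estimates from separate sets of genes lay within 1.25-fold. The depth sets counting error for low genes, and no interval was computed from it. Promoters were those of RefSeq on GRCm38.p6. Python 3.11.15 with numpy 2.4.6, pandas 2.3.3 and scipy 1.17.1 was used. The procedures were tested on simulated data, where the limma comparison within broad cells recovered a minority of the changes put in.

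The genes named are the 12 highest and 12 lowest with 1 sign in all preparations, the 3 largest and the most opposite of each list, 12 fixed markers, the 5 of smallest p per limma comparison and the 8 with the widest gap in share of cells. 1 gene that this rule names is not reported here. Other genes were named after their values were seen. Alternatives covered the detection threshold, group size, depth, pseudocount, filter, scaling, block and each preparation left out.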

Additional observations from a re-analysis of the deposited data

Results flagged for a closer look

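In 2 gene lists, preparation 3 lay far from the other 4 by Dixon's ratio, out of 42 sets of 5 preparation values examined. Chance alone marks about 1 in 20 such sets. The median difference of ribosomal protein genes, broad minus narrow on the deposited scale, was 0.126 in preparation 3, against -0.22 to -0.13 in the others. That of respiratory chain genes was 0.852, against -0.10 to 0.02. Preparation 3 also had the fewest detected genes in both broad and narrow cells. Its part in these medians was not tested beyond leaving it out, which gave -0.19 for ribosomal protein genes and -0.03 for respiratory chain genes.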

How the results depend on the processing

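Of the 10 comparisons, 97 of 106 alternative values kept their direction and size class, and 9 moved. Leaving out each preparation in turn gave 2930 to 4429 genes higher in broad cells and 81 to 144 lower, against 2623 and 43, since fewer preparations must then share a sign. Scaling to a common 75th percentile gave 4140 and 5. Of the named genes with 1 sign in all 5 preparations, 1 changed sign: Uchl1, at 0.32 under that scaling. Of the other named genes, 24 changed sign under at least 1 alternative, among them Nanos2, Neurog3, Id4, Etv5, Ier3 and Cdkn1a. Of 24 list medians, 3 changed sign: ribosomal proteins (0.33 at the 75th percentile), respiratory chain (-0.03 without preparation 3) and endothelial markers (-0.06 with cells chosen within quartiles). Without a filter on low values, limma called 1 gene between Q1 and Q4 among broad cells, Gulo, detected in 12 cells in all. No replicate block (preparation not in the fit) gave 0 calls in each of the 3 limma comparisons, with 323, 608 and 332 genes at an unadjusted p under 0.05. A share of 0.05 of the 10452 genes, as chance alone would give, lies above 323 and 332 and below 608. Leaving out a preparation gave 1273 to 1638 for the difference in detected genes, 14.3 to 26.8 percentage points for Q1, -32.2 to -18.0 for Q4, -0.73 to -0.59 for the quartile number and -0.35 to -0.24 for depth. With 5 preparations no permutation test could pass 0.05, and low genes rest on 1 or a few fragments per cell.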
